A study of Micropterus salmoides with 18 samples.

Results

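The response of ovary-type gonads to sustained heat was set against that of testis-type gonads in largemouth bass (Micropterus salmoides), a farmed freshwater fish. For each gene, the change in ovary-type libraries (HT-M minus NC-F) was taken less the change in testis-type libraries (HT-F minus NC-M), both as differences of log2(FPKM + 1). FPKM counts fragments for each kilobase of a gene and scales them to the library's mapped fragments. The genes were chosen by their measured FPKM: they are those with a mean of at least 1 FPKM over the 6 ovary-type libraries and also over the 6 testis-type libraries. There were 14392 of them among the 43106 genes of the table, and 14386 passed the filter of the fit. At the edge of that threshold, inpp5f averaged 1.00 FPKM and ddias 1.78 FPKM over the ovary-type libraries and both were kept, with inpp5f at 5.02 and ddias at 1.00 FPKM over the testis-type libraries, whereas nbl1 and rhd averaged 0.998 FPKM over the ovary-type libraries and were not. Of the 14386 genes, 1630 averaged under 1 FPKM in at least 1 of the 4 groups.

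Per the labels, 216 fish were kept in 12 tanks of 18, males apart from females, outside the breeding season, with 3 tanks per group. The HT libraries came from gonads of fish held for 28 days at 28 °C, a temperature reached within 2 h, and the NC libraries from gonads of fish held for 28 days at 20 °C. The IC libraries came from day 0. The letters M and F stand for male and female, which gives 6 groups of 3 libraries, and 12 libraries (HT-M, NC-F, HT-F and NC-M) enter the 2 heat effects. The sources used here do not give strain or age. Whether a group's 3 libraries stem from different fish or different tanks is not stated in the labels. The p-values therefore reflect the spread among these libraries alone, and that spread may be technical.

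Gonad genes went against the letters M and F in the HT and IC libraries, and the groups were paired by those genes. The median gene of an oocyte list stood at 7.83 to 7.90 (log2(FPKM + 1)) in the libraries labelled HT-M and 8.46 to 8.66 in NC-F, against 1.49 to 2.01 in the libraries labelled HT-F and 1.21 to 1.41 in NC-M. The median gene of a sperm and flagellum list stood at 0.73 to 0.92 in HT-M and 0.50 to 0.71 in NC-F, against 5.26 to 5.65 in HT-F and 3.48 to 5.33 in NC-M. Zar1, a maternal-effect gene of the oocyte, read 514, 518 and 509 FPKM in HT-M and 1209, 1064 and 1081 FPKM in NC-F, but 1.81, 3.89 and 2.51 FPKM in HT-F and 1.68, 2.54 and 1.5 FPKM in NC-M. At day 0, the libraries labelled IC-M were ovary-type and those labelled IC-F testis-type by the same lists. The sources used here do not say which letters are wrong, and every direction below takes the prefixes HT and NC as labelled.

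An ovary outside the breeding season is made up largely of growing oocytes with stored maternal RNA and surrounding follicle cells, and a testis of dividing and meiotic germ cells with Sertoli and Leydig cells. Heat unfolds proteins, and cells respond with chaperones, the proteasome that degrades damaged proteins, and the unfolded protein response of the endoplasmic reticulum. Stress in fish also raises corticosteroids, whose receptor acts on transcription. The respiratory chain is built from subunits encoded in the mitochondrial genome together with others encoded in the nucleus.

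Libraries that stood apart bear on every testis-type effect. NC-M 1 and NC-M 2 correlated at 0.932 with each other across genes (Pearson's r of log2 values), whereas NC-M 3 correlated with them at 0.856 to 0.871 and with the HT-F libraries at 0.916 to 0.934. The median gene's SD over 3 libraries was 0.165 (log2) in HT-M, 0.127 in NC-F, 0.181 in HT-F and 0.363 in NC-M. HT-F 1 correlated at 0.935 to 0.939 with HT-F 2 and HT-F 3, which correlated at 0.974 with each other. In the median cell cycle gene, NC-M 1 and NC-M 2 stood at 3.52 and 3.69 and NC-M 3 at 5.06, and in the median cytosolic ribosomal protein gene they stood at 11.8 and 11.7 and NC-M 3 at 10.7. The fit shares 1 estimate of the spread over all 4 groups. With each gonad type fitted alone, HT-F against NC-M called 29 genes in place of 5476, and HT-M against NC-F called 8669 in place of 5096. For many genes the testis-type effect is given also without NC-M 3 or with NC-M 3 as the only NC-M library, and in the last case the spread of that lone library is taken to be that of the other groups.

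Among the 14386 genes, limma called 4026 in HT-M against NC-F at an adjusted p under 0.05 (28.0%), with 2334 higher (16.2%) and 1692 lower (11.8%) in HT-M. It called 3714 in HT-F against NC-M (25.8%), with 2747 higher (19.1%) and 967 lower (6.72%) in HT-F. Over all 23625 genes tested these shares were 21.6% (12.4% higher and 9.16% lower) and 23.2% (14.3% higher and 8.91% lower). The difference of the effects was called for 4227 genes (29.4%), of which 1804 had the higher effect in ovary-type (12.5%) and 2423 the lower effect in ovary-type (16.8%), against 24.7% of all genes tested (12.2% and 12.5%). The median effect of all members was 0.07 in ovary-type and 0.19 in testis-type libraries, but -0.03 and 0.04 under a median-of-ratios scaling, where the calls split into 1897 higher and 2466 lower in HT-M and into 1734 higher and 1391 lower in HT-F. The median difference of the effects was -0.13 in the FPKM as deposited and -0.09 after that scaling.

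Both effects were called in 990 genes, and 550 of them moved in opposite directions against 440 in the same direction. The calls and their signs chose the classes that follow, so their sizes are a description. In 412 genes the response was alike, meaning both effects called with the same sign and no call for the difference, with 327 higher and 85 lower. In 28 more the signs were the same and the difference was called. The opposite class held 232 genes higher in HT-M and lower in HT-F, and 318 lower in HT-M and higher in HT-F. A response in ovary-type libraries only, with the difference called as well, was found in 978 higher and 898 lower genes, and in testis-type libraries only in 892 higher and 383 lower genes. A further 1160 genes were called in ovary-type and 1449 in testis-type libraries with no call in the other type and none for the difference, and these are not counted as responses of 1 gonad type. Genes under 1 FPKM in a group met the threshold through the other group of that type, which bears on their calls. They were 50 of 327 alike higher, 24 of 85 alike lower, 57 of 232 opposite higher in HT-M and 35 of 318 opposite lower. In ovary-type only they were 186 of 978 higher and 119 of 898 lower genes. In testis-type only they were 45 of 892 higher and 68 of 383 lower genes, against 1630 of all 14386. After median-of-ratios scaling the split into higher and lower genes was 178 and 166 in the alike class, 866 and 1339 in ovary-type only, and 624 and 557 in testis-type only. In bulk gonads, fewer cells of a type and less RNA per cell cannot be told apart in any of these changes.

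**Figure D1:**
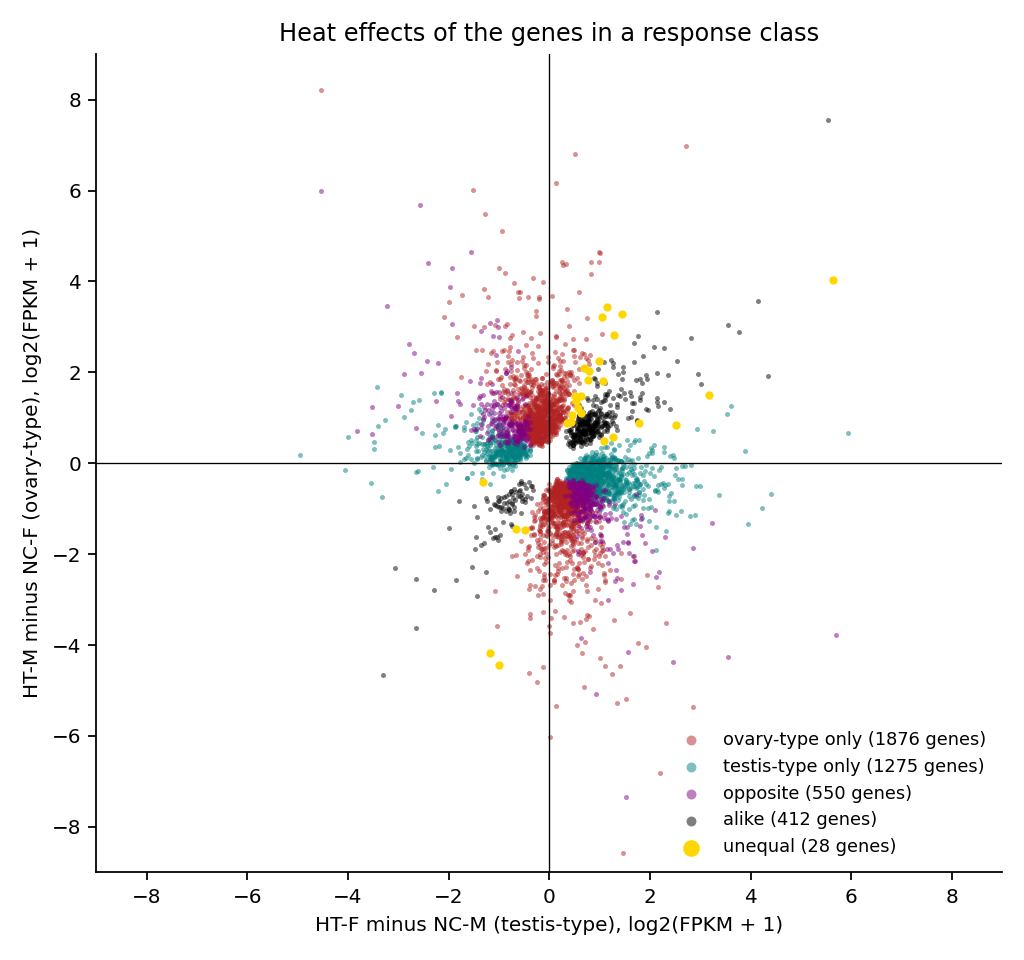
Each point is a gene in a response class, placed by its change in HT-F against NC-M (horizontal, log2(FPKM + 1)) and in HT-M against NC-F (vertical, log2(FPKM + 1)), with colours for the classes. The 550 opposite genes lie at the upper left and lower right and the 412 alike genes at the upper right and lower left, because the calls placed them there.

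The 2 heat effects were nearly uncorrelated across genes. Over the 14386 genes Pearson's r between them was -0.08 and Spearman's coefficient -0.11. Without NC-M 3, r was -0.11, with NC-M 3 as the only NC-M library it was 0.03, and without HT-F 1 it was -0.03. These are descriptions across genes that share libraries and are not independent replicates, and the 2 effects share no library.

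How many genes kept their class with other NC-M libraries differed between classes, in part through how the classes are defined. Ovary-type only requires no call in HT-F against NC-M, and the other classes require one. With NC-M 3 as the only NC-M library that call is harder to reach. The counts with NC-M 3 alone therefore do not rank the classes by stability. Of the 978 genes higher in ovary-type libraries only, 730 stayed in the class without NC-M 3 and 648 with NC-M 3 alone. Of the 898 lower ones, 648 and 593 stayed. Of the 892 genes higher in testis-type libraries only, 607 stayed without NC-M 3 and 107 with NC-M 3 alone. In the opposite class, 232 of 232 genes higher in HT-M and 312 of 318 genes lower in HT-M stayed without NC-M 3, but 59 and 40 with NC-M 3 alone. In the alike class, 284 of 327 higher genes stayed without NC-M 3 and 65 with NC-M 3 alone.

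**Figure D2:**
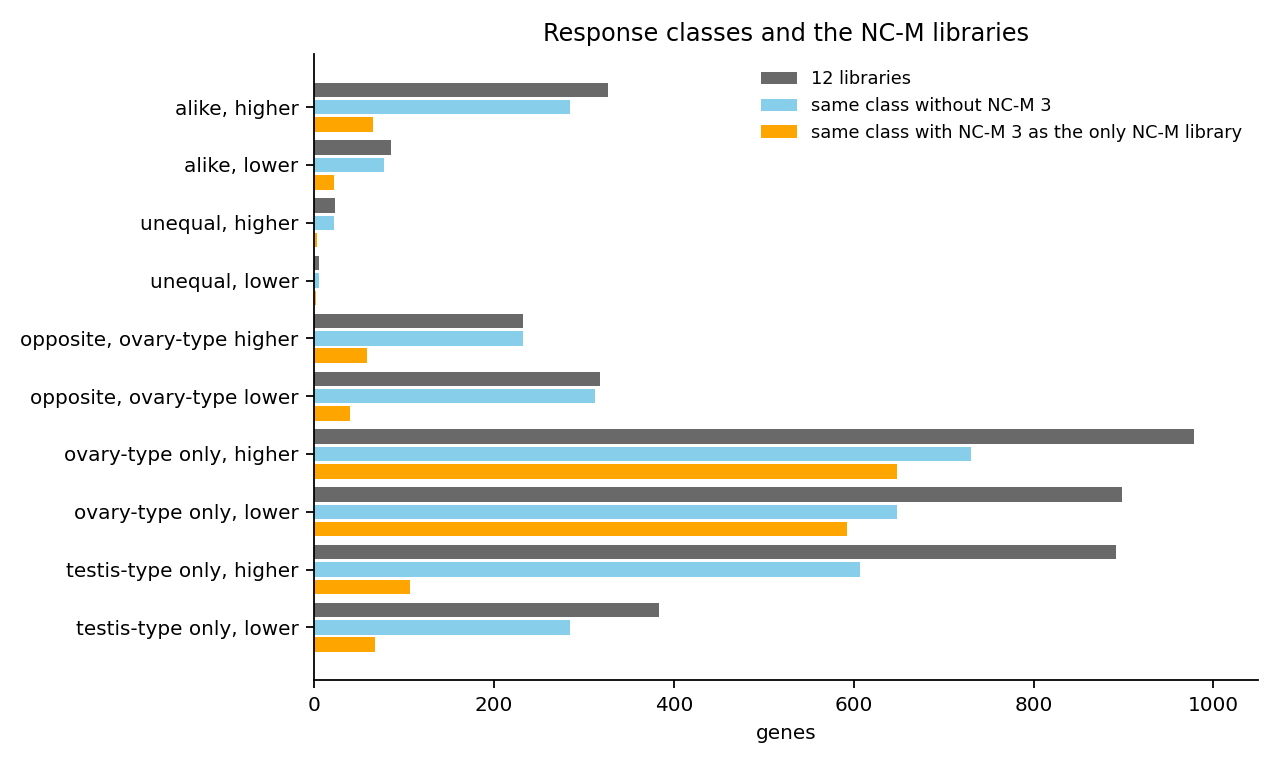
Bars count genes (horizontal axis) in each response class over 12 libraries, and how many of them kept the class without NC-M 3 or with NC-M 3 as the only NC-M library. With NC-M 3 alone the ovary-type only classes keep more of their genes than testis-type only, higher. They require no call in HT-F against NC-M, which is harder to reach with NC-M 3 alone.

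Genes that were higher in heat in both gonad types included fkbp5 and igfbp1a, named by the size of their smaller effect. Genes named for a class had to have groups without overlap in each called effect, so that separation is no added support for them. Of all 14386 genes, 9032 had no overlap between HT-M and NC-F, and 5024 had none between HT-F and NC-M. Fkbp5, a co-chaperone of the corticosteroid receptor and a target of that receptor, read 16.1, 19.4 and 16.5 FPKM in HT-M against 4.02, 3.91 and 4.48 in NC-F, and 34.3, 65.2 and 81.3 FPKM in HT-F against 19.3, 9.02 and 25.2 in NC-M. Heated libraries lay above the unheated ones in both types without overlap, although HT-F 1 was near NC-M 3. The effects were 1.83 ± 0.356 (log2, SE) in ovary-type and 1.73 ± 0.356 in testis-type libraries, and the testis-type effect was 1.14 with NC-M 3 alone, no longer called.

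Igfbp1a, a binding protein of insulin-like growth factors that rises in fasting and stress, read 15.2, 18.8 and 15.3 FPKM in HT-M against 3.30, 3.22 and 4.26 in NC-F, and 11.4, 68.7 and 69.8 FPKM in HT-F against 0.52, 0.36 and 2.47 in NC-M. HT-F 1 was well below HT-F 2 and HT-F 3 yet above every NC-M library. The effects were 1.93 ± 0.591 in ovary-type and 4.35 ± 0.591 in testis-type libraries. Their difference was not called, which put igfbp1a in the alike class although the testis-type effect was the larger. The testis-type effect was 4.77 without NC-M 3 and 3.50 with NC-M 3 alone. The ovary-type call was lost under 8 of 23 alternatives, with a pseudocount of 0.1, with no filter and without any one of the HT-M or NC-F libraries, while the effect stayed between 1.83 and 2.17. At day 0 it read 0.75, 0.51 and 0.58 FPKM in IC-M and 2.22, 1.68 and 2.63 FPKM in IC-F, below each heated library of the same gonad type.

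The rule for named genes also gave slc6a8, fkbp16 and cfap53 among the genes higher in both. With each gonad type fitted alone, the testis-type call was lost in all of these and in fkbp5 and igfbp1a. Slc6a8, the creatine transporter, changed by 2.24 in HT-M and 1.67 in HT-F, and its testis-type call was lost without NC-M 1, NC-M 2, HT-F 2 or HT-F 3 and with NC-M 3 alone. Fkbp16 changed by 2.12 and 1.45, and its testis-type effect was 1.82 without NC-M 3 and 0.72, no longer called, with NC-M 3 alone. Cfap53, a protein of cilia and flagella, read 9.93, 7.60 and 12.8 FPKM in HT-M against 0.02, 0.02 and 0.22 in NC-F and 74.1, 55.0 and 43.3 FPKM in HT-F against 7.41, 5.63 and 39.0 in NC-M, and its testis-type effect was 2.13, but 0.51 with NC-M 3 alone, and the call was lost as well without NC-M 1, NC-M 2, HT-F 1 or HT-F 2. Slc6a8, fkbp16 and cfap53 met the threshold of 1 FPKM in ovary-type only through HT-M, so their rise there is partly set by that choice.

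Few genes with a symbol were lower in both types at the size required for naming, and 3 met the rule. They were rragd, nlrx1 and taf4a, and each lost its testis-type call with each gonad type fitted alone. Rragd, a Rag GTPase that signals amino acid supply to mTORC1, read 0.97, 0.73 and 0.8 FPKM in HT-M against 4.64, 4.74 and 6.32 in NC-F and 10.4, 10.4 and 8.75 FPKM in HT-F against 18.5, 29.8 and 30.9 in NC-M. No heated library reached an unheated one of its type, as the naming rule required, and the effects were -1.76 and -1.30 (-1.56 with NC-M 3 alone). Rragd and taf4a met the threshold of 1 FPKM in ovary-type only through NC-F, so their fall there is partly set by that choice. Nlrx1, a mitochondrial member of the NLR family, changed by -1.51 and -1.17 (-1.14, no longer called, with NC-M 3 alone), and taf4a, a subunit of the general transcription factor TFIID, by -1.0 and -1.18 (-0.93 with NC-M 3 alone).

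Crema, which encodes a cAMP-responsive transcription factor with a known role in mouse spermatids, was higher in both types but by unequal amounts. It read 7.22, 11.3 and 8.87 FPKM in HT-M against 1.85, 3.78 and 2.22 in NC-F, and 31.5, 60.8 and 68.5 FPKM in HT-F against 4.59, 3.37 and 6.80 in NC-M. The groups did not overlap in either type. The effects were 1.5 and 3.17 with a difference of -1.67 ± 0.46, which was -1.23 and no longer called with NC-M 3 alone. The call for the difference was lost as well without NC-F 2, NC-M 2, HT-F 2, HT-F 3, HT-M 1 or HT-M 3.

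**Figure D3:**
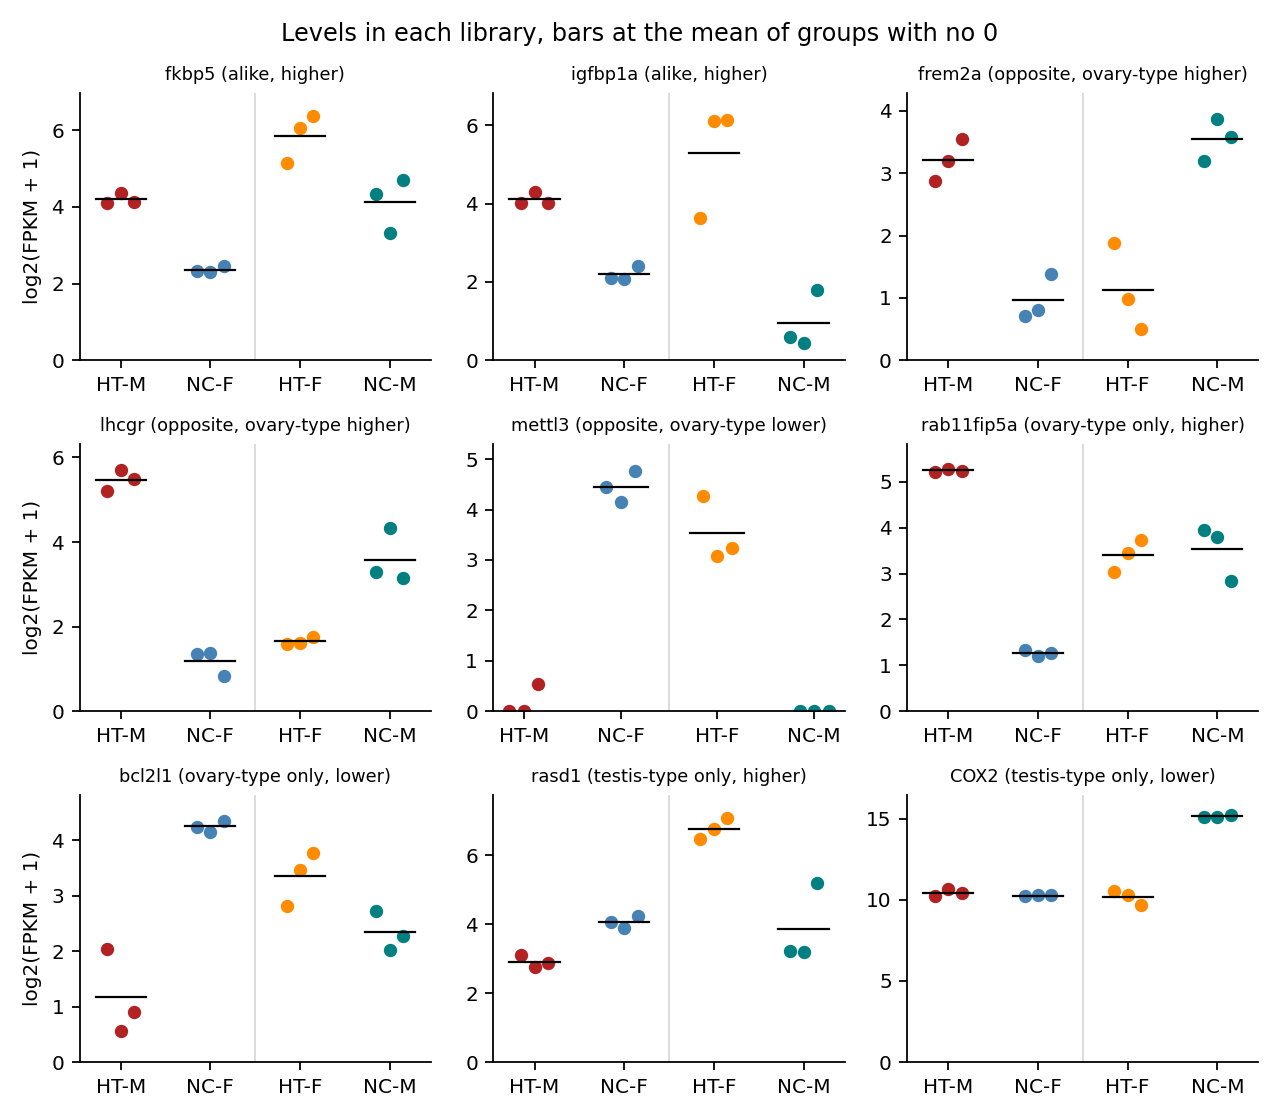
Points are single libraries of 9 genes, on the log2(FPKM + 1) scale, with a bar at the mean of each group that has no library at 0, and a line parts the ovary-type pair (HT-M, NC-F) from the testis-type pair (HT-F, NC-M). Lhcgr and frem2a lie high in HT-M and NC-M, mettl3 in NC-F and HT-F, and COX2 stands at the same level in 3 groups and higher in NC-M.

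Genes with opposite responses included lhcgr, frem2a and mettl3. Lhcgr, the receptor of luteinizing hormone on follicle cells and Leydig cells, read 35.8, 51.4 and 44.2 FPKM in HT-M against 1.55, 1.59 and 0.77 in NC-F, and 2.02, 2.04 and 2.39 FPKM in HT-F against 8.75, 19.1 and 7.83 in NC-M. As the naming rule required, every HT-M library was above every NC-F library and every HT-F library below every NC-M library. The effects were 4.29 ± 0.292 and -1.93 ± 0.292, and the testis-type effect was -2.15 without NC-M 3 and -1.49 with NC-M 3 alone. At day 0 lhcgr read 0.36, 0.41 and 0.12 FPKM in IC-M and 4.27, 3.52 and 3.29 FPKM in IC-F, so in each type the day-0 level lay nearer to that of NC-F and of HT-F than to that of HT-M and of NC-M.

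Frem2a, an extracellular matrix protein of basement membranes, read 6.38, 8.15 and 10.7 FPKM in HT-M against 0.64, 0.74 and 1.62 in NC-F, and 2.70, 0.97 and 0.42 FPKM in HT-F against 8.18, 13.6 and 11.0 in NC-M. All 4 groups were separate within their type, as the naming rule required. Its effects were 2.24 and -2.43, and the testis-type effect was -2.46 with NC-M 3 alone. Fbrsl1 moved the same way, by 1.43 and -1.41, but NC-M 3 read near the HT-F libraries and left a testis-type effect of -0.38.

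Mettl3, the catalytic subunit of the enzyme that writes N6-methyladenosine into mRNA, showed the reverse pattern. It was listed at 0, 0 and 0.46 FPKM in HT-M against 20.9, 16.7 and 26.1 in NC-F, and at 18.4, 7.50 and 8.50 FPKM in HT-F against 0, 0 and 0 in NC-M. At day 0 it read 42.4, 38.0 and 29.8 FPKM in IC-M and 0, 0 and 0 in IC-F. An exact 0 can be a failed estimate in this table, since ND1, a mitochondrial gene that every cell uses, was listed at 0 in all 3 HT-M and all 3 HT-F libraries and in NC-M 1 and NC-M 2. Acat2, an enzyme of acetyl-CoA metabolism, was likewise listed at 0 in all HT-M and all NC-M libraries, against 3.14, 5.54 and 4.26 FPKM in NC-F and 0.02, 6.92 and 10.2 FPKM in HT-F. No mean is given for groups with such values. Mettl3 and acat2 met the threshold of 1 FPKM only through NC-F and HT-F, where they are high, so their changes are partly set by that choice.

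The other genes named for a lower level in HT-M and a higher one in HT-F were hepacamb, trim47 and erp44. Erp44, a chaperone that retains proteins in the early secretory pathway, read 3.50, 1.38 and 2.60 FPKM in HT-M against 8.67, 9.36 and 14.0 in NC-F, and 36.0, 20.6 and 25.2 FPKM in HT-F against 4.67, 5.58 and 20.5 in NC-M. NC-M 3 was close to HT-F 2, and with NC-M 3 alone the testis-type effect was 0.36 in place of 1.57. Trim47, a ubiquitin ligase, had effects of -2.04 and 1.67 (0.48 with NC-M 3 alone), and the adhesion protein gene hepacamb -2.16 and 1.71 (1.07). Hepacamb averaged under 1 FPKM in at least 1 of HT-M and NC-M, and met the threshold there through the other group of that type. Its change in that type is partly set by that choice.

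Among genes with a response in ovary-type libraries only, those named had the widest difference of the effects among the genes that met the naming rule. Rab11fip5a, an effector of the recycling-endosome GTPase Rab11, read 36.5, 38.1 and 36.7 FPKM in HT-M against 1.52, 1.31 and 1.42 in NC-F, and 7.14, 9.91 and 12.4 FPKM in HT-F against 14.5, 13.0 and 6.18 in NC-M. The ovary-type groups were far apart and the testis-type groups overlapped, with effects of 3.98 ± 0.269 and -0.13 ± 0.269. At day 0 the ovary-type libraries IC-M read 46.4, 47.9 and 51.0 FPKM, close to HT-M and not to NC-F.

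Mrm3a, a methyltransferase of mitochondrial ribosomal RNA, had the same form, with 16.8, 16.9 and 15.4 FPKM in HT-M, 0.47, 0 and 0.2 in NC-F and 20.1, 18.5 and 19.0 in IC-M. Pde9a, a cyclic GMP phosphodiesterase, read 97.3, 101 and 69.8 FPKM in HT-M and 25.8, 19.6 and 6.27 in NC-F, an effect of 2.49. Ripor1 read 4.36, 26.4 and 7.01 FPKM in HT-M and 0.96, 0.95 and 0.75 in NC-F, with HT-M 2 far above the other HT-M libraries. Mrm3a and ripor1 met the threshold of 1 FPKM in ovary-type only through HT-M, so their rise there is partly set by that choice.

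Bcl2l1, which encodes the anti-apoptotic protein Bcl-xL, was lower in ovary-type libraries only. It read 3.12, 0.47 and 0.86 FPKM in HT-M against 17.9, 16.8 and 19.4 in NC-F, and 6.08, 10.1 and 12.6 FPKM in HT-F against 5.60, 3.05 and 3.83 in NC-M. The ovary-type groups did not overlap. Each HT-F library was above each NC-M library too, but the testis-type effect of 1.02 ± 0.367 missed the threshold. At day 0 it read 11.3, 14.2 and 0.09 FPKM in the ovary-type libraries IC-M, so its level also varied within an unheated group.

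Nfyc, a subunit of the transcription factor NF-Y, and nek10, a kinase of the NIMA family, were lower in ovary-type libraries only as well. Nfyc read 1.71, 1.2 and 0.27 FPKM in HT-M against 12.8, 14.8 and 16.7 in NC-F, and nek10 read 0.69, 0.71 and 0.53 FPKM in HT-M against 15.3, 20.5 and 15.7 in NC-F. Nek10 is a case where the class depends on the NC-M libraries, since its testis-type effect was 1.29, but 1.95 without NC-M 3 and -0.04 with NC-M 3 alone. Mrps15, a protein of the mitochondrial ribosome, read 0.68, 0.16 and 1.84 FPKM in HT-M against 110.1, 116 and 118 in NC-F, while the testis-type libraries scattered over 36.8, 1.61 and 0 FPKM in HT-F and 2.33, 27.3 and 0 in NC-M. The difference that puts mrps15 in this class was lost under 11 of 22 alternatives, namely a pseudocount of 0.1, no filter and 9 of the single-library omissions. Nek10 and mrps15 met the threshold of 1 FPKM in ovary-type only through NC-F, so their fall there is partly set by that choice.

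Among genes with a response in testis-type libraries only, the rule named rasd1 on the higher side, a Ras-like GTPase first known as a dexamethasone-induced gene. It read 7.68, 5.80 and 6.28 FPKM in HT-M against 15.6, 13.8 and 17.8 in NC-F, and 86.9, 107 and 135 FPKM in HT-F against 8.38, 8.05 and 35.4 in NC-M. All HT-F libraries lay above NC-M 3, the highest of the NC-M libraries, and HT-M lay below NC-F without overlap. The ovary-type effect of -1.14 ± 0.439 missed the threshold. The testis-type effect of 2.90 ± 0.439 was 3.56 without NC-M 3 and 1.58 with NC-M 3 alone.

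Creg2 and slc31a2 were named by the same rule and rested on NC-M 1 and NC-M 2. Slc31a2, a copper transporter, read 36.4, 38.2 and 39.0 FPKM in HT-F against 3.99, 1.52 and 29.3 in NC-M, an effect of 2.42 that was 0.36 with NC-M 3 alone. Creg2 read 48.7, 48.6 and 36.7 FPKM in HT-F against 2.92, 3.91 and 32.9 in NC-M, an effect of 2.38 that was 0.42 with NC-M 3 alone. Ptgdsb.1, a prostaglandin D synthase, read 35.0, 122 and 27.4 FPKM in HT-F against 10.2, 14.1 and 15.0 in NC-M, and the effect of 1.85 was 1.65, no longer called, with NC-M 3 alone. The call for the difference was lost under 9 of 23 alternatives in creg2 and 12 of 23 in slc31a2, most of them single-library omissions.

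The 4 genes named among the 383 lower in testis-type libraries only were COX2, ND2, ND3 and ND4L, all of the mitochondrial genome. COX2, a core subunit of cytochrome c oxidase, read 1219, 1619 and 1368 FPKM in HT-M against 1182, 1245 and 1258 in NC-F, and 1484, 1256 and 831 FPKM in HT-F against 35110, 34777 and 38676 in NC-M. HT-F thus stood at the level of the ovary-type libraries, and the 3 NC-M libraries lay together far above. The effects were 0.18 ± 0.219 in ovary-type and -4.96 ± 0.219 in testis-type libraries, and the testis-type effect was -5.06 with NC-M 3 alone. At day 0 the ovary-type libraries IC-M read 3289, 3475 and 2994 FPKM and the testis-type libraries IC-F read 18196, 23974 and 22317 FPKM, on the side of NC-M.

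Of the 13 protein-coding genes of the mitochondrial genome, 5 were higher and 1 lower in HT-M (16.2% and 11.8% of all 14386 genes), and 12 were lower and none higher in HT-F (6.72% and 19.1%). The 1 lower in HT-M was ND1, whose values there can be failed estimates, as described above. The difference of the effects was called in 12, all of them higher in ovary-type (12.5% of all genes). The median gene changed by 0.57 in ovary-type and by -3.49 in testis-type libraries, against 0.07 and 0.19 over all 14386 genes. The median testis-type effect was -3.35 without NC-M 3, -3.77 with NC-M 3 alone and -3.65 after median-of-ratios scaling. The summed FPKM of these genes lay between 11070 and 18710 in HT-M and between 10700 and 11360 in NC-F. It lay between 11070 and 15950 in HT-F and between 125900 and 148600 in NC-M. At day 0 it lay between 19670 and 27280 in IC-M and between 68570 and 87740 in IC-F. FPKM are shares of a library, so a sum of this size also bears on the level of all other genes in NC-M, and its part in their effects was not tested beyond the median-of-ratios scaling.

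CYTB of complex III and COX3 of complex IV were among the genes that moved in opposite directions. CYTB read 1006, 1804 and 1318 FPKM in HT-M against 334, 325 and 345 in NC-F, and 1322, 2189 and 1563 FPKM in HT-F against 9713, 9787 and 9644 in NC-M, with effects of 2.00 and -2.55. COX3 had effects of 1.25 and -3.0. ND2, ND3 and ND4L of complex I changed by -0.14, 0.57 and 0.46 in ovary-type and by -4.07, -4.00 and -3.48 in testis-type libraries. ND4 and ND6 of the same complex were called in both, at 0.71 and 0.65 in ovary-type and -3.83 and -3.52 in testis-type libraries.

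ND1 stood out from the other 12. It was listed at 0, 0 and 0 FPKM in HT-M against 183, 180.4 and 166 in NC-F, and at 0, 0 and 0 FPKM in HT-F against 0, 0 and 709 in NC-M. No fold change is given for it. COX1, the catalytic subunit of cytochrome c oxidase, read 2598, 4089 and 3261 FPKM in HT-M against 4369, 4294 and 4600 in NC-F, and 2048, 3084 and 2268 FPKM in HT-F against 27922, 30435 and 26788 in NC-M.

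The called differences among nuclear genes of oxidative phosphorylation had the other sign from those of the mitochondrial genome. Of 51 members, 3 were higher and 11 lower in HT-M, 18 were higher and none lower in HT-F, and the difference was called in 24, each of them lower in ovary-type. Of all 14386 genes, 16.2% were higher and 11.8% lower in HT-M, and 19.1% were higher and 6.72% lower in HT-F. A lower difference was called in 16.8% of all genes. The median effects of the 51 genes were -0.23 in ovary-type and 0.45 in testis-type libraries. With NC-M 3 alone 1 gene was called in testis-type libraries, the testis-type median was 0.14, and 15 differences were called, all lower in ovary-type. Without NC-M 3 the differences numbered 1 higher and 36 lower, and after median-of-ratios scaling 0 and 25.

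Atp5f1c, the gamma subunit of ATP synthase, read 399, 370.2 and 392 FPKM in HT-M against 679, 675 and 655 in NC-F, and 328, 308 and 361 FPKM in HT-F against 233, 199 and 272 in NC-M. The groups were apart in both types and the difference was -1.30 ± 0.187 (limma adjusted p = 0.00144). Atp5mc3a, of the membrane ring of the same enzyme, differed by -1.47 ± 0.198 (limma adjusted p = 0.00106), and ndufa8 of complex I by -1.33 ± 0.195 (limma adjusted p = 0.00152).

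**Figure D4:**
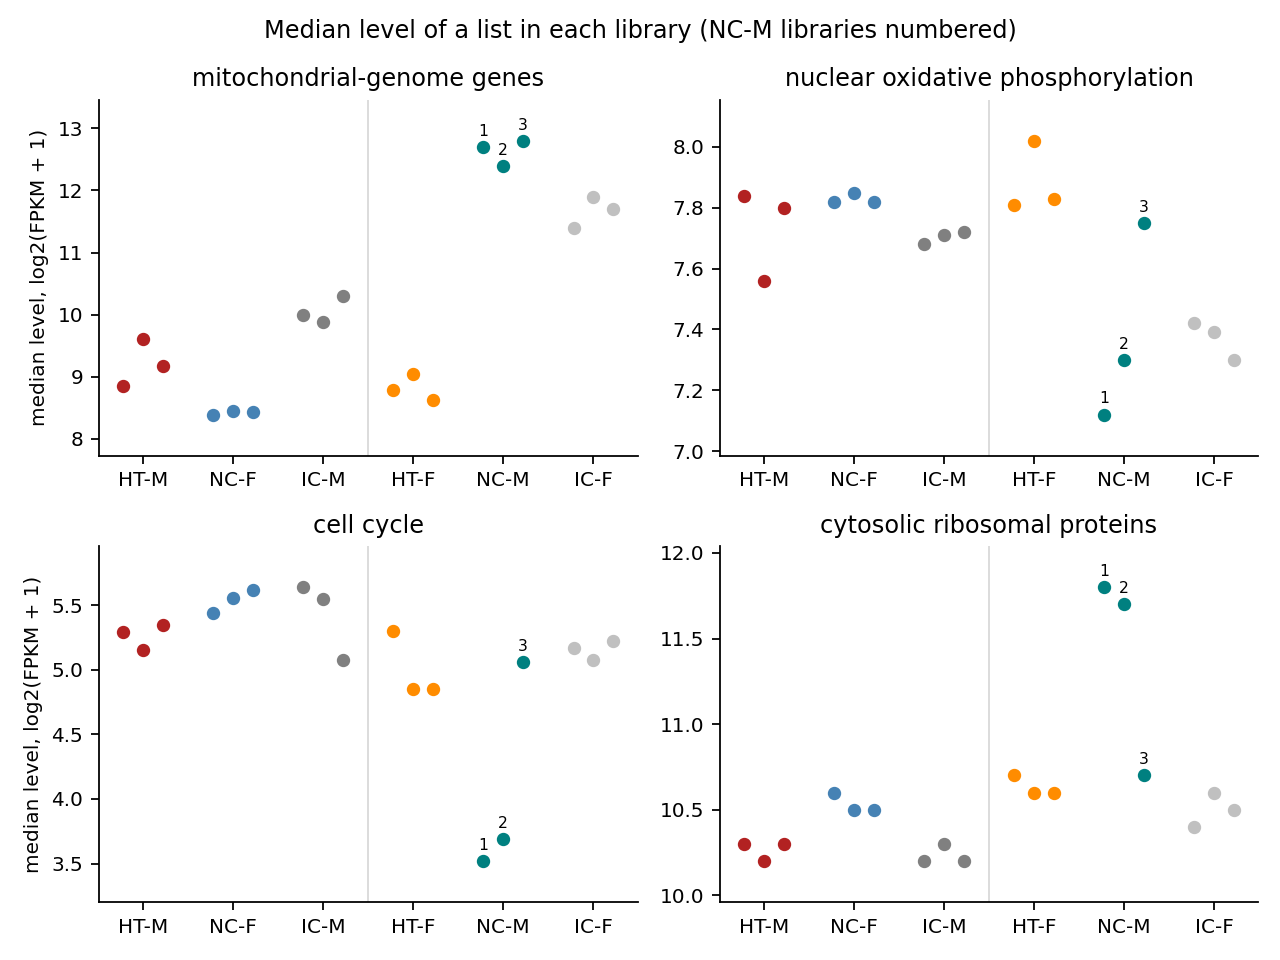
Points give the median level (log2(FPKM + 1)) of a gene list in each library, with ovary-type groups left and testis-type groups right of the line and the NC-M libraries numbered. The mitochondrial-genome genes stood at 12.4 to 12.8 in all 3 NC-M libraries against 8.62 to 9.05 in HT-F, whereas in the other 3 lists NC-M 3 stood near HT-F and apart from NC-M 1 and NC-M 2.

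Of 45 proteasome and ubiquitin genes, 3 were higher and 9 lower in HT-M, and 14 were higher and none lower in HT-F. The difference was called in 1 gene with the higher and 22 with the lower effect in ovary-type. Of all 14386 genes, 16.2% were higher and 11.8% lower in HT-M, and 19.1% were higher and 6.72% lower in HT-F. A higher difference was called in 12.5% and a lower one in 16.8% of all genes. The medians of the 45 genes were -0.40 in ovary-type and 0.52 in testis-type libraries. With NC-M 3 alone, 2 and 15 differences were called and the testis-type median was 0.09, and without HT-F 1, 1 and 14 were called.

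Psme1, a subunit of the proteasome activator PA28, read 146, 130.2 and 138 FPKM in HT-M against 262, 228 and 247 in NC-F, and 359.7, 366 and 353 FPKM in HT-F against 200.4, 246 and 317 in NC-M. HT-M lay below every NC-F library and HT-F above every NC-M library, NC-M 3 being the nearest. The difference was -1.35 ± 0.219 (limma adjusted p = 0.00252). Psma2, a subunit of the catalytic core, differed by -2.23 ± 0.42 (limma adjusted p = 0.00519), and the assembly chaperone gene psmd9 by -1.76 ± 0.251 (limma adjusted p = 0.00134).

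Of 27 heat shock protein genes, 5 were higher and 1 lower in HT-M, 6 were higher and none lower in HT-F, and 2 had a higher and 6 a lower difference. Over all 14386 genes 16.2% were higher in HT-M, 19.1% were higher in HT-F and 16.8% had a lower difference, and the heat shock protein counts are near these shares. Of 46 DNAJ and BAG co-chaperone genes, 6 were higher and 8 lower in HT-M, 18 were higher and 1 lower in HT-F, and 3 had a higher and 16 a lower difference. Without NC-M 3 the differences numbered 4 and 13 among heat shock proteins, and with NC-M 3 alone 1 and 3. Among co-chaperones they numbered 1 and 9 with NC-M 3 alone and 3 and 8 without HT-F 1. After median-of-ratios scaling the calls in HT-M were 4 higher and 4 lower among heat shock proteins and 3 higher and 10 lower among co-chaperones.

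Hspb9, a small heat shock protein, was higher in ovary-type libraries only, at 8.14, 21.7 and 12.0 FPKM in HT-M against 1.62, 2.80 and 1.19 in NC-F, while HT-F read 4.10, 5.41 and 5.63 and NC-M 2.71, 6.69 and 4.28 FPKM. HT-M stood above NC-F without overlap, HT-F and NC-M overlapped, and the difference was 2.14 ± 0.506 (limma adjusted p = 0.0133). Hspa4a and hspa4b, large relatives of HSP70 that act as its exchange factors, differed by -2.00 (limma adjusted p = 0.0153; adjusted p = 0.0563 with NC-M 3 alone) and -0.79 (limma adjusted p = 0.00822).

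Stip1, the adaptor that joins HSP70 and HSP90, read 56.4, 50.8 and 56.1 FPKM in HT-M against 72.4, 79.6 and 78.0 in NC-F, and 47.5, 50.7 and 43.0 FPKM in HT-F against 26.5, 24.5 and 32.3 in NC-M. The groups were apart in both types, in opposite directions, and the difference was -1.23 ± 0.175 (limma adjusted p = 0.00134; -1.01 with NC-M 3 alone). The J-domain co-chaperones dnaja2a and dnajb14 differed by -1.0 (limma adjusted p = 0.00477) and -2.64 (limma adjusted p = 0.00433).

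In the list of the unfolded protein response and folding in the endoplasmic reticulum, the difference was called in 12 of 40 genes with a lower and 1 with a higher effect in ovary-type. Of all 14386 genes, 16.8% had a lower and 12.5% a higher difference. Without NC-M 3 the 40 genes had 1 higher and 17 lower differences, and without HT-F 1 they had 1 and 9. Their median testis-type effect was 0.34, and 0.14 with NC-M 3 alone. Xbp1, a transcription factor of that response, read 15.2, 10.9 and 13.0 FPKM in HT-M against 42.5, 44.9 and 68.8 in NC-F, and 38.2, 30.2 and 30.0 FPKM in HT-F against 21.1, 15.2 and 37.6 in NC-M. The ovary-type groups were apart and the testis-type groups overlapped through NC-M 3. The difference was -2.38 ± 0.416 (limma adjusted p = 0.00357). P4hb, a protein disulfide isomerase, differed by -1.72 (limma adjusted p = 0.00387), and ssr4, of the translocon, by -1.20 (limma adjusted p = 0.00337).

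Of 33 antioxidant and glutathione genes, 4 were higher and 10 lower in HT-M, and 8 were higher and none lower in HT-F. The difference was called in 2 genes with a higher and 13 with a lower effect in ovary-type, and in 0 and 11 without HT-F 1. The median difference was -0.45, and -0.69 with NC-M 3 alone. Of all 14386 genes, 16.2% were higher and 11.8% lower in HT-M, and 19.1% were higher and 6.72% lower in HT-F. A higher difference was called in 12.5% and a lower one in 16.8% of all genes. Cat, the catalase gene, read 22.9, 18.3 and 21.3 FPKM in HT-M against 27.0, 29.1 and 30.4 in NC-F, and 107, 119 and 141 FPKM in HT-F against 40.9, 45.6 and 64.6 in NC-M. The groups were apart in both types, but the ovary-type effect of -0.45 missed the threshold (limma adjusted p = 0.0946), and the difference was -1.74 ± 0.248 (limma adjusted p = 0.00137). At day 0 cat read 32.03, 29.93 and 32.70 FPKM in IC-F, below every HT-F library.

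Txn2, the mitochondrial thioredoxin, moved in opposite directions. It read 62.8, 30.4 and 57.1 FPKM in HT-M against 102, 101 and 131 in NC-F, and 65.8, 67.1 and 73.8 FPKM in HT-F against 34.2, 33.7 and 34.9 in NC-M. The 3 NC-M libraries were nearly equal and all below HT-F. The difference was -2.18 ± 0.324 (limma adjusted p = 0.00165), and -2.15 with NC-M 3 alone, where the testis-type effect itself was no longer called. Mgst3b, a microsomal glutathione transferase, differed by -1.72 (limma adjusted p = 0.00165), with an ovary-type effect of -1.37.

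Of 14 corticosteroid-responsive genes, 3 were higher and 1 lower in HT-M (16.2% and 11.8% of all 14386 genes), and 11 were higher and none lower in HT-F (19.1% and 6.72%). The medians were 0.53 in ovary-type and 1.59 in testis-type libraries, against 0.07 and 0.19 over all genes. The difference was called in 4 genes, each lower in ovary-type (16.8% of all genes). With NC-M 3 alone 4 genes were higher in HT-F, with a median of 1.37. Without NC-M 3, 7 differences were called, and without HT-F 1, 9 were called and the testis-type median was 1.90.

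Dusp1, a phosphatase that shuts off MAP kinases, read 23.9, 37.7 and 28.2 FPKM in HT-M against 11.9, 12.1 and 11.2 in NC-F, and 27.4, 80.5 and 85.6 FPKM in HT-F against 2.85, 2.62 and 6.87 in NC-M. Heated libraries were above unheated ones in both types without overlap, and the difference was -2.36 ± 0.588 (limma adjusted p = 0.0166; -1.64 and adjusted p = 0.113 with NC-M 3 alone). Cebpd, a transcription factor of acute stress, read 159, 153 and 150.1 FPKM in HT-M against 134, 151 and 141 in NC-F, and 57.7, 95.3 and 110.4 FPKM in HT-F against 24.4, 28.6 and 20.1 in NC-M. The ovary-type groups overlapped, HT-F lay above NC-M, and the difference was -1.66 (limma adjusted p = 0.00435).

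Nfkbiaa, an inhibitor of NF-kB, is in the corticosteroid list too and moved in opposite directions. It read 75.5, 72.8 and 77.8 FPKM in HT-M against 148, 149 and 138 in NC-F, and 34.8, 36.3 and 34.9 FPKM in HT-F against 17.9, 14.7 and 28.7 in NC-M. The difference was -1.75 ± 0.269 (limma adjusted p = 0.00195), and -1.23 with NC-M 3 alone (adjusted p = 0.000591). Fkbp5, described above, belongs to the same list.

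**Figure D5:**
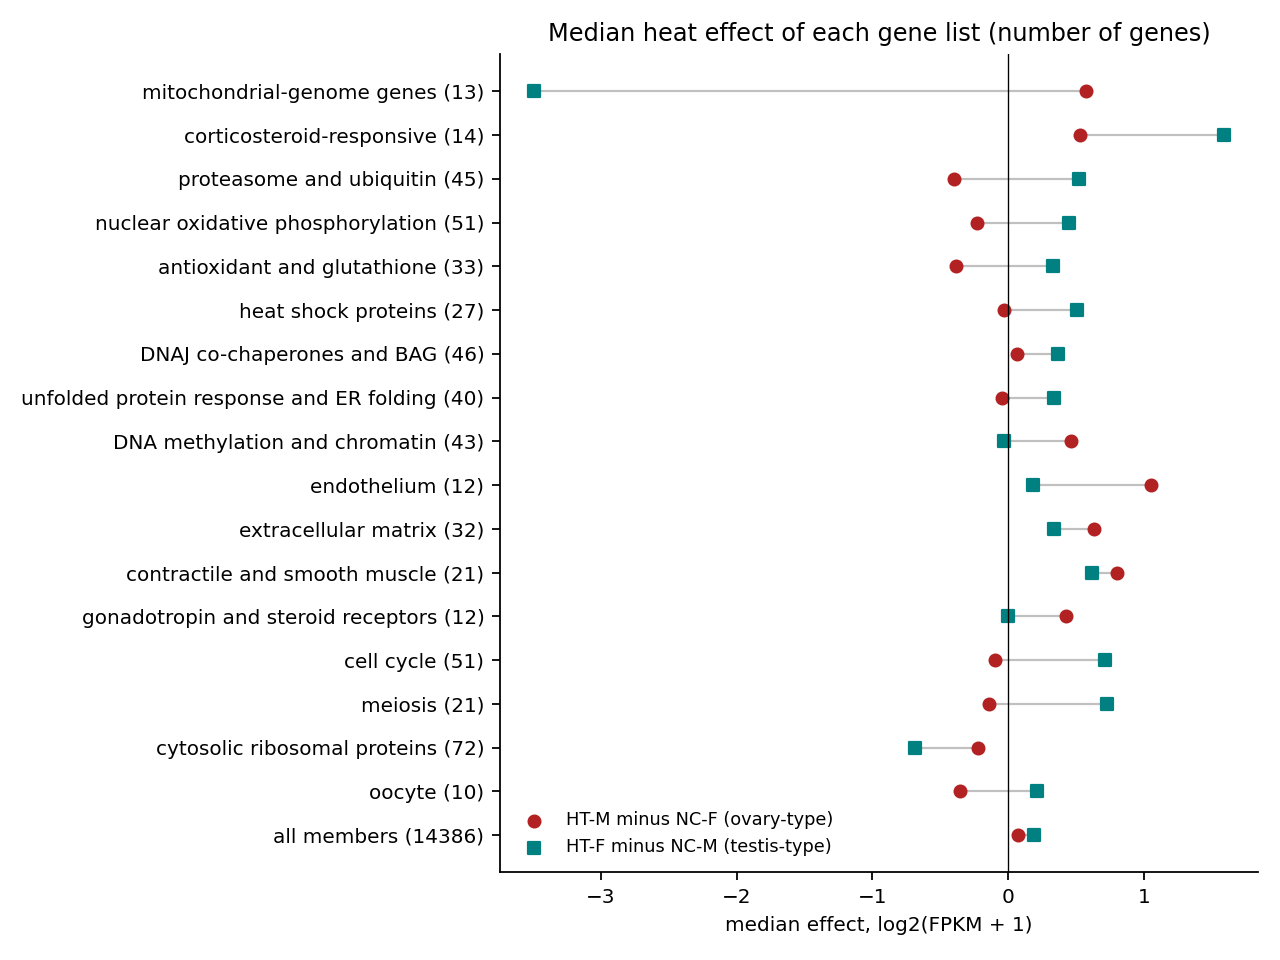
For each gene list (number of member genes in brackets), circles give the median change of HT-M against NC-F and squares that of HT-F against NC-M, on the log2(FPKM + 1) scale. The mitochondrial-genome genes are at 0.57 and -3.49, the proteasome genes at -0.40 and 0.52, and all members at 0.07 and 0.19.

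Of all 14386 genes, 16.2% were higher and 11.8% lower in HT-M, 19.1% were higher and 6.72% lower in HT-F, and 12.5% had a higher and 16.8% a lower difference. Of 43 DNA methylation and chromatin genes, 14 were higher and 1 lower in HT-M, 6 were higher and 9 lower in HT-F, and the difference was called in 17 with the higher and 5 with the lower effect in ovary-type. With NC-M 3 alone these numbers were 16 and 2, and after median-of-ratios scaling 18 and 5. Suz12b, of the Polycomb repressive complex PRC2, read 5.90, 8.47 and 5.39 FPKM in HT-M against 3.08, 3.80 and 3.48 in NC-F, and 16.7, 15.6 and 17.5 FPKM in HT-F against 53.2, 58.3 and 37.6 in NC-M. The groups were apart in both types, and the difference was 2.25 ± 0.27 (limma adjusted p = 0.000597).

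Ehmt1b, a histone H3 lysine methyltransferase, read 8.08, 8.08 and 8.64 FPKM in HT-M against 3.94, 4.33 and 4.20 in NC-F, and 6.35, 6.85 and 6.72 FPKM in HT-F against 10.1, 10.6 and 10.7 in NC-M. NC-M 3 lay with NC-M 1 and NC-M 2, and the difference of 1.43 ± 0.157 (limma adjusted p = 0.000346) was 1.46 with NC-M 3 alone. Setd2, which trimethylates lysine 36 of histone H3, rose by 0.99 in HT-M, and its testis-type effect was -0.32 (limma adjusted p = 0.063).

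Vessel and stroma genes called in HT-M were mostly higher. Of 12 endothelial genes 9 were higher and 1 lower in HT-M, and 3 were higher in HT-F. Of 32 extracellular matrix genes 13 were higher and 1 lower in HT-M, and 4 were higher in HT-F. Of 21 contractile and smooth muscle genes 10 were higher and 2 lower in HT-M, and 4 were higher in HT-F. The difference was called in 4 higher and 1 lower endothelial, 6 higher extracellular matrix, and 3 higher and 3 lower contractile genes. Over all 14386 genes 16.2% were higher and 11.8% lower in HT-M, and 19.1% were higher in HT-F. The difference was higher in 12.5% and lower in 16.8% of them. The called differences of the 21 contractile genes are near these shares, and no matrix gene had a lower difference. With NC-M 3 alone 3 endothelial genes were called, all higher. Without HT-F 1, 1 higher and 1 lower extracellular matrix gene were called, and with NC-M 3 alone 2 and 2. The summed FPKM of the tested endothelial genes was 70.19 to 91.59 in HT-M and 30.1 to 36.8 in NC-F, and 170.7 to 208.1 in HT-F and 150.0 to 182.4 in NC-M, and the part of vessel cells in other ovary-type effects was not tested.

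Kdrl, a receptor of vascular endothelial growth factor, read 5.54, 9.31 and 6.96 FPKM in HT-M against 1.15, 1.78 and 1.82 in NC-F, and 13.6, 18.2 and 15.0 FPKM in HT-F against 17.5, 15.4 and 15.7 in NC-M. HT-M was above NC-F without overlap but under every testis-type library, whose groups overlapped. The difference was 1.73 ± 0.27 (limma adjusted p = 0.00215), and the related receptor gene kdr differed by 1.57 (limma adjusted p = 0.00421) and the scavenger receptor gene stab2 by 1.96 (limma adjusted p = 0.00769).

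Among matrix genes, lamb1a, a laminin chain, read 5.96, 7.06 and 5.60 FPKM in HT-M against 1.40, 1.59 and 1.60 in NC-F and differed by 1.18 (limma adjusted p = 0.0176). The membrane-bound metalloproteinase gene mmp14b differed by 1.40 (limma adjusted p = 0.0301; adjusted p = 0.165 with NC-M 3 alone) and sparc, a collagen-binding protein, by 1.59 (limma adjusted p = 0.035; adjusted p = 0.185 with NC-M 3 alone), and these calls were lost under 11 of 22 and 10 of 23 alternatives. Among contractile genes, cald1a (caldesmon) differed by 1.77 (limma adjusted p = 0.00866), and the myosin light chain gene myl9b by -2.02 (limma adjusted p = 0.00237). Myl2b, another myosin light chain, was listed at 0, 0.08 and 0.08 FPKM in HT-M against 13.5, 15.7 and 13.3 in NC-F, and at 3.04, 4.87 and 4.35 in HT-F against 2.43, 1.67 and 2.83 in NC-M. Myl2b met the threshold of 1 FPKM in ovary-type only through NC-F, so its fall there is partly set by that choice.

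Of 12 gonadotropin and steroid receptor genes, lhcgr among them, 4 had a higher and 1 a lower effect in ovary-type, and 7 and 2 without NC-M 3. The shares over all 14386 genes were 12.5% higher and 16.8% lower. Pgr, the progestin receptor gene, read 15.6, 24.8 and 19.4 FPKM in HT-M against 6.98, 6.15 and 5.10 in NC-F, and 49.2, 61.2 and 74.3 FPKM in HT-F against 103, 134 and 71.8 in NC-M. HT-M was above NC-F, while HT-F 3 overlapped with NC-M 3. The difference was 2.26 ± 0.349 (limma adjusted p = 0.00201). Thrb, a thyroid hormone receptor gene, differed by 1.64 ± 0.316 (limma adjusted p = 0.00573), with a testis-type effect of -0.99 (-0.44, no longer called, with NC-M 3 alone). Inhbaa, the activin beta A subunit of follicle and Sertoli cells, read 1.74, 2.25 and 1.80 FPKM in HT-M against 0.08, 0.1 and 0.05 in NC-F, and differed by 1.96 (limma adjusted p = 0.00243). It met the threshold of 1 FPKM in ovary-type only through HT-M, so its rise there is partly set by that choice.

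Counts for cell division and meiosis genes turned on single libraries. Over all 14386 genes 19.1% were higher in HT-F, and 12.5% had a higher and 16.8% a lower difference. The lower differences among the 21 meiosis genes are near that last share, and those among the 51 cell cycle genes are under it. Without NC-M 3 the differences called over all members also rose, to 3030 higher and 4585 lower among 14383 genes. Of 51 cell cycle genes, 2 were higher and 3 lower in HT-M, 21 were higher and 1 lower in HT-F, and 1 had a higher and 4 a lower difference. Without NC-M 3 these differences numbered 2 and 34, with NC-M 3 alone 7 and 1, and without HT-F 1, 1 and 0. Of 21 meiosis genes, 1 and 4 had a called difference, against 1 and 13 without NC-M 3 and 4 and 3 with NC-M 3 alone. Ccna2, a cyclin of S phase and mitosis, read 548, 584 and 569.9 FPKM in HT-M against 1168, 1096 and 979.8 in NC-F, and 71.3, 48.9 and 44.0 FPKM in HT-F against 7.77, 9.87 and 48.9 in NC-M. NC-M 3 stood among the HT-F libraries, and the testis-type effect was 1.70, but 2.48 without NC-M 3 and 0.13 with it alone. The call for its difference was lost under 7 of 23 alternatives, all of them single-library omissions.

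Sycp3, of the synaptonemal complex, read 1.71, 0.58 and 0.29 FPKM in HT-M against 8.47, 6.89 and 5.97 in NC-F, and 458, 500.1 and 418 FPKM in HT-F against 136, 226 and 414 in NC-M. The ovary-type groups were apart, and the difference of -3.15 ± 0.517 (limma adjusted p = 0.00268) was -2.33 with NC-M 3 alone (adjusted p = 0.00816). Sycp3 met the threshold of 1 FPKM in ovary-type only through NC-F, so its fall there is partly set by that choice. Mnd1, a partner of the meiotic recombinase, differed by -2.98 (limma adjusted p = 0.00292; -1.96 with NC-M 3 alone), and rad51ap1, of recombination repair, by -1.56 (limma adjusted p = 0.0198; -0.69 with NC-M 3 alone).

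The cell cycle genes chek2, a checkpoint kinase, and ccne1, a cyclin of S phase entry, differed by 0.92 (limma adjusted p = 0.00804) and -1.37 (limma adjusted p = 0.0276; adjusted p = 0.11 with NC-M 3 alone), with the ccne1 call lost under 9 of 23 alternatives. Oocyte genes at 1 FPKM or more in both types numbered 10, of which 4 were lower and none higher in HT-M, and 1 had a higher and 3 a lower difference (1 and 6 without NC-M 3). Over all 14386 genes 11.8% were lower in HT-M, and 12.5% had a higher and 16.8% a lower difference. Zpax1, an egg coat gene, read 247, 227 and 245 FPKM in HT-M against 540.2, 478 and 521 in NC-F, and differed by -1.17 (limma adjusted p = 0.01), and zar1 differed by -1.46 (limma adjusted p = 0.00507). Buc, which organises the Balbiani body of the oocyte, overlapped between HT-M at 172, 199.7 and 184 and NC-F at 171, 173 and 132 FPKM. Its difference was called as lower in ovary-type, and that call was lost under 7 of 22 alternatives, most of them single-library omissions.

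Cytosolic ribosomal protein genes turned direction with the NC-M libraries. Of all 14386 genes, 16.2% were higher and 11.8% lower in HT-M, 6.72% were lower and 19.1% higher in HT-F, and 12.5% had a higher difference. Of 72 ribosomal protein genes, 1 was higher and 2 lower in HT-M, 21 were lower and none higher in HT-F, and 4 had a called difference, higher in ovary-type. Without NC-M 3, 63 were higher and none lower, and with NC-M 3 alone 2 were higher and 16 lower. Rps18 read 544, 539 and 572 FPKM in HT-M against 496, 484 and 494 in NC-F, and 706, 571 and 587 FPKM in HT-F against 2010, 1896 and 894 in NC-M. NC-M 1 and NC-M 2 stood above NC-M 3 and every HT-F library, and the difference was 1.45 (limma adjusted p = 0.018), 1.82 without NC-M 3 and 0.70 with it alone. Rps3 differed by 1.08 (limma adjusted p = 0.0451; adjusted p = 0.154 with NC-M 3 alone), a call lost under 15 of 23 alternatives.

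The day-0 libraries, which no class used, show how the classes stood before the experiment. Between IC-M and IC-F, limma called 81.7% of the 14076 members tested there, 40.3% higher and 41.4% lower in IC-M, against 86.8% of all 21203 genes tested, 33.5% higher and 53.3% lower. Of the genes in the opposite class that were higher in HT-M, 27.9% were higher and 54.1% lower in IC-M than in IC-F. Of those lower in HT-M, 48.6% were higher and 28.4% lower in IC-M. Of the alike genes higher in heat, 30.5% were higher and 50.8% lower in IC-M, and of the alike genes lower in heat 54.2% were higher and 25.3% lower.

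The day-0 level was also set beside the heated and the unheated group of each type. IC-M lay nearer to HT-M than to NC-F in 52.0% of all members, 58.8% of the opposite genes lower in HT-M, and 47.4% of those higher in HT-M. IC-F lay nearer to HT-F than to NC-M in 57.3% of all members, and in 80.2% of the opposite genes higher in HT-M, 79.1% of the genes lower in testis-type only, and 75.3% of the genes lower in both. Among genes higher in HT-F this held less often. It held in 40.9% of the opposite genes lower in HT-M, 39.1% of the alike genes higher in heat, and 56.7% of those higher in testis-type only. These shares are descriptions over genes, which are not independent, and the NC and HT levels in them also chose the classes. The testis-type shares use the mean of the 3 NC-M libraries, which were unlike in their distance to day 0. NC-M 3 correlated with the IC-F libraries at 0.914 to 0.92, and NC-M 1 and NC-M 2 at 0.798 to 0.804. Shares with NC-M 3 alone are not given. COX2 was among the genes lower in HT-F for which IC-F lay nearer to NC-M. The median mitochondrial-genome gene stood at 11.4 to 11.9 in IC-F, against 12.4 to 12.8 in NC-M and 8.62 to 9.05 in HT-F.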

How the data were processed

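RNA-seq gave 18 gonad libraries. The authors deposited 1 table of FPKM values per gene and library, per the file headers. For the aligner, counter, annotation and genome build, a name is not given in the sources used here. Low FPKM did not resolve into whole reads, so depth is unknown. FPKM summed to 745181 to 1020595 per library.

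From the deposited FPKM, log2(FPKM + 1) was computed and 1 model with 4 groups was fitted to 12 libraries with limma 3.58.1 (R 4.3.3, trended empirical Bayes), over genes at 1 FPKM or more in at least 3 libraries. P-values were adjusted by Benjamini-Hochberg over all genes tested, with a threshold of 0.05. The day-0 libraries were fitted apart. Members, gene lists and tests were chosen with earlier results of these data known. Genes were named where a symbol was given, a group averaged at least 5 FPKM, and each called effect was at least 1 (log2) with groups that did not overlap. Of these, 5 per direction were taken for alike and opposite responses, by the smaller effect, and 4 for responses of 1 type, by the difference. Of each list, up to 3 genes with a called difference were taken by p. Genes beyond these, such as COX1 and ND1, were chosen after their values were seen. The fit was tested on simulated data with the same spread in all 4 groups, so that test does not bear on the wider spread of NC-M. Alternatives changed the pseudocount (0.1), filter, scaling, libraries, weights and block. Figures used matplotlib 3.10.9. Some results are not reported here.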

Additional observations from a re-analysis of the deposited data

Results flagged for a closer look

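For the genes below the change in heat differed between the gonad types by limma's test of the difference itself (adjusted p under 0.05), which is what put them here. The genes were picked by the same values, so the values are a description. Each is the ovary-type effect minus the testis-type effect on the log2(FPKM + 1) scale. For mettl3 and acat2 whole groups were listed at 0, so their values depend on the added 1 and are no fold change.

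Among genes higher in HT-M and lower in HT-F, the effects differed in frem2a by 4.67, CYTB by 4.55, lhcgr by 6.22, fbrsl1 by 2.84, COX3 by 4.25 and ND4 by 4.54. They differed as well in ND6 by 4.17, ehmt1b by 1.43 and suz12b by 2.25.

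Among genes lower in HT-M and higher in HT-F, the effects differed in mettl3 by -7.81, acat2 by -4.55, hepacamb by -3.87, trim47 by -3.71, erp44 by -3.33 and psme1 by -1.35. They differed as well in psma2 by -2.23, atp5mc3a by -1.47, atp5f1c by -1.30, ndufa8 by -1.33, stip1 by -1.23 and dnajb14 by -2.64. To these are added dnaja2a by -1.0, ssr4 by -1.20, p4hb by -1.72, txn2 by -2.18, nfkbiaa by -1.75 and myl2b by -4.46. Further genes were myl9b by -2.02.

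Among genes higher in HT-M with no call in HT-F, the effects differed in mrm3a by 5.15, rab11fip5a by 4.11, pde9a by 3.94, ripor1 by 3.83, hspb9 by 2.14 and kdrl by 1.73. They differed as well in kdr by 1.57, stab2 by 1.96, lamb1a by 1.18, mmp14b by 1.40, sparc by 1.59 and cald1a by 1.77. To these are added setd2 by 1.30, pgr by 2.26, inhbaa by 1.96 and chek2 by 0.92.

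Among genes lower in HT-M with no call in HT-F, the effects differed in mrps15 by -6.05, nek10 by -4.74, bcl2l1 by -4.10, nfyc by -3.91, psmd9 by -1.76 and xbp1 by -2.38. They differed as well in mgst3b by -1.72, sycp3 by -3.15, mnd1 by -2.98, zar1 by -1.46 and zpax1 by -1.17.

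Among genes higher in HT-F with no call in HT-M, the effects differed in rasd1 by -4.04, creg2 by -3.11, slc31a2 by -3.08, ptgdsb.1 by -3.04, hspa4a by -2.00 and hspa4b by -0.79. They differed as well in cat by -1.74, dusp1 by -2.36, cebpd by -1.66, rad51ap1 by -1.56, ccna2 by -2.62 and ccne1 by -1.37. To these are added buc by -1.81.

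Among genes lower in HT-F with no call in HT-M, the effects differed in COX2 by 5.14, ND3 by 4.57, ND4L by 3.94, ND2 by 3.92, COX1 by 3.10 and thrb by 1.64. They differed as well in rps18 by 1.45 and rps3 by 1.08.

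Among genes higher in both by unequal amounts, the effects differed in crema by -1.67.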

How the results depend on the processing

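Counts of called genes moved by more than 1.5 times under several settings. The balance of called differences turned in some gene lists: with NC-M 3 alone the called differences were 2 higher and 16 lower for cytosolic ribosomal protein genes, against 4 and 0 over all libraries, 7 and 1 for cell cycle genes, against 1 and 4, and 4 and 3 for meiosis genes, against 1 and 4. The difference of ND1, not called over all libraries, changed sign there too. Among the named genes with a called difference, that difference kept its sign under the alternatives run, as did both heat effects of the named alike genes. The separate heat effects of the other named genes were not followed in this way. The testis-type effect of nek10, not called over all libraries, changed sign with NC-M 3 alone. With a mean of at least 5 FPKM in both types, 3165 genes were called for the difference, 2783 for HT-M against NC-F and 3193 for HT-F against NC-M, and 1174 responded in ovary-type only; fewer genes are tested there. With library weights (gene-by-gene method, since the REML one did not converge), these calls numbered 10666, 11170 and 8279, with 1040 alike, 1679 opposite and 453 unequal. With each gonad type fitted alone, 8669 and 29 genes were called for the 2 effects, and 2 were alike, 10 opposite, 3305 in ovary-type only, 5 in testis-type only and 3 unequal. With all 18 libraries fitted, HT-F against NC-M called 8568, with 748 alike, 921 opposite, 2076 in testis-type only and 64 unequal. With an absolute log2 of at least 1 the effects numbered 2380 and 2545, and the classes 103 alike, 109 opposite, 1118 in ovary-type only, 590 in testis-type only and 8 unequal. With NC-M 3 as the only NC-M library, chosen after seeing the data, the effects numbered 7993 and 1539, with 227 alike, 229 opposite and 306 in testis-type only. Without the filter, 18 were unequal. The cause was not tested for the weights, the 18-library fit and the single NC-M library.

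Leaving out 1 library at a time gave 3668 to 11379 calls for the difference, 3007 to 7488 for HT-M against NC-F, 1805 to 10790 for HT-F against NC-M and 11854 to 17414 for IC-M against IC-F. The classes ranged over 153 to 970 alike, 216 to 1811 opposite, 1160 to 2137 ovary-type only, 457 to 3070 testis-type only and 5 to 431 unequal. The highest numbers came without NC-M 3, except for ovary-type only (without NC-M 1) and day 0 (without IC-M 3). Same-numbered libraries did not deviate together (r of -0.22 to 0.152, over 0.1 in 4 of 18 pairs), and the main fit did not pair them. So few libraries per group cannot show that the numbers carry no pairing. The fit with a replicate block called 5040 for the difference, 4516 and 4389 for the 2 effects and 18229 at day 0, with 323 alike, 417 opposite, 1654 ovary-type only, 1000 testis-type only and 23 unequal.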
